A study of Mus musculus with 20 samples.

Results

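Blood vessels of the tumors and of the normal kidneys were examined through 10 genes known as markers of endothelial cells, the cells that line every vessel. The genes were picked by symbol from a count table of 54532 genes: Pecam1, Cdh5, Emcn and Plvap as genes of endothelium in general, Ehd3 as a gene of glomerular capillaries, Eng as a gene of proliferating vessels, Esm1, Apln and Aplnr as genes of sprouting and tumor vessels, and Vwf as a gene of larger vessels. All 10 were found once and all 10 passed the filter on low counts, which kept 15354 genes for testing. The table holds 20 libraries, from 10 tumors and 10 normal kidneys, which the study collected from a cohort of 10 mice. Every C57BL/6J mouse carried LSL-Cas9/+ and Pax8 Cre/+ and had received in the kidney a Cre-less AAV with sgRNAs against Vhl, Pbrm1, Keap1 and Tsc1. The normal kidney regions came from those same mice, so the controls share the Cas9 allele and the Cre transgene. Whether the sampled normal tissue had taken up the virus is not given in the sources used here. The Pax8 promoter drives Cre, and through it Cas9, in cells that make Pax8, which are epithelial in the kidney. Male and female adult mice were injected, and the age at collection is not given in the sources used here.

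Endothelial cells hold together through adherens junctions built on VE-cadherin (Cdh5) and meet one another at sites rich in PECAM-1. In the kidney they form the fenestrated capillaries of the glomerulus, where blood is filtered, and the peritubular capillaries that run beside the tubules. When a vessel sprouts, a tip cell leads the sprout and makes endocan (Esm1) and apelin (Apln), while the apelin receptor (Aplnr) is made by endothelium that receives the signal. Clear cell kidney tumors that lose VHL are known for dense vessels, since HIF then stays active and raises VEGF.

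Total counts ran from 18447394 to 24902973 in tumors and from 14737516 to 26679704 in normal kidneys. Levels are given as CPM, counts of a gene scaled to a common library total with the TMM factors of edgeR, and differences as log2 fold changes, tumor minus normal kidney. Of the targeted genes, Vhl had a median of 17.9 CPM in tumors against 25.9 CPM in controls (log2 fold change -0.49, edgeR adjusted p = 0.00179), Tsc1 was lower by 0.61 (adjusted p = 0.00871), Pbrm1 differed by -0.28 (adjusted p = 0.23), and Keap1 was higher by 0.83 (adjusted p = 1.3e-07). A cut by Cas9 need not lower the mRNA, so these levels check the labels only weakly. Normal kidney 9 stood apart from the other normal kidneys: its TMM factor was 0.749 against 1.03 to 1.14, and its summed podocyte markers came to 152 CPM against 691 to 1112 CPM. Tumors and normal kidneys came from the same mice, but nothing in the labels says which libraries share a mouse. The p-values therefore treat the 20 libraries as independent, although libraries of the same mouse are not.

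The endothelial genes did not move as one group. At an adjusted p under 0.05 (quasi-likelihood test of edgeR, adjusted by Benjamini and Hochberg's method over all 15354 genes), 4 of the 10 were higher in tumors (Apln, Esm1, Aplnr and Cdh5), 2 were lower (Ehd3 and Eng) and 4 passed in neither direction (Pecam1, Emcn, Plvap and Vwf). Over all genes tested, 23.6% were called higher and 23.8% lower, that is 3631 and 3661 genes. With library totals in place of TMM factors the split was 2850 and 4554, and with upper quartile factors 3000 and 4650. By the limits the study used, a log2 fold change over 1 and an unadjusted p under 0.001, 3 of the 10 were higher (8.85% of all genes) and 1, Ehd3, was lower (10.2% of all genes). For 2 of the 10, Apln and Esm1, all tumors exceeded all normal kidneys, as they did for 5.87% of all genes, and in 0 of the 10 was every tumor below every normal kidney (4.74% of all genes). The median log2 fold change of the 10 was 0.34, beside -0.02 over all genes tested. In tissue RNA, the number of endothelial cells, the RNA per endothelial cell and RNA made by other cells, tumor cells included, cannot be told apart. This holds for every gene below.

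**Figure D1:**
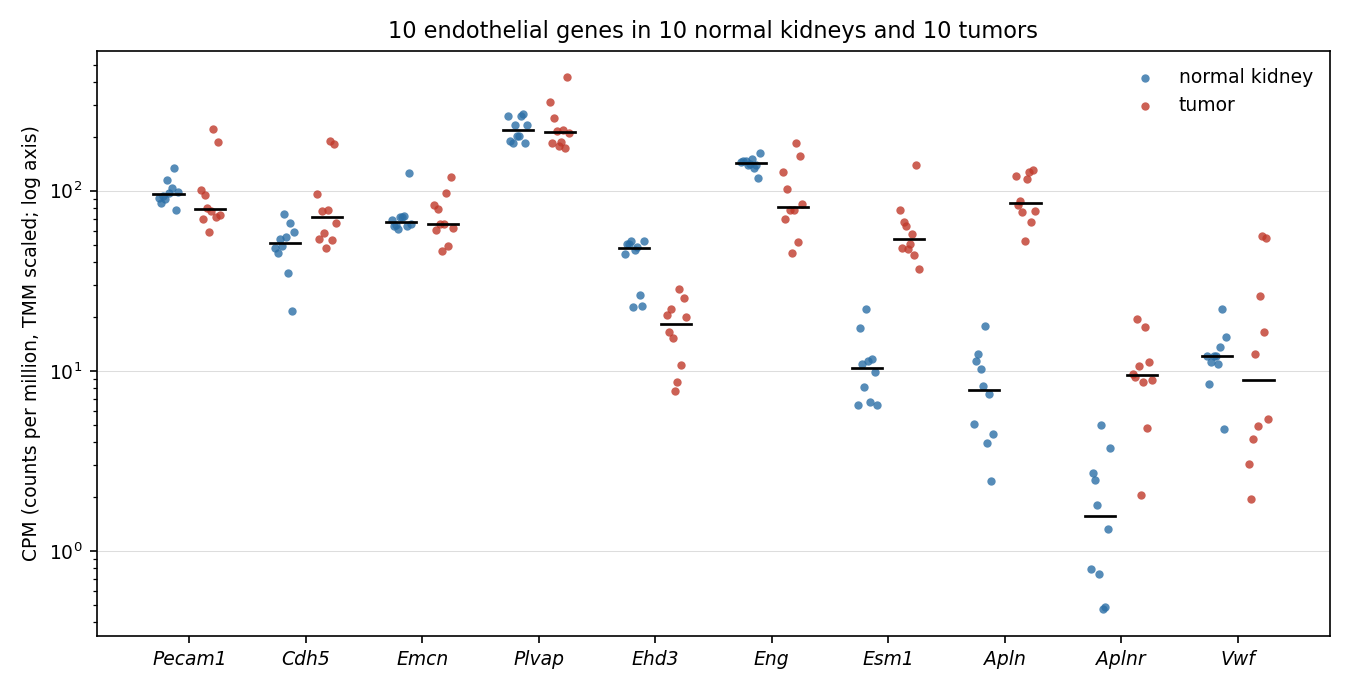
Level of each of the 10 genes in CPM on a log axis, 1 point per library, with normal kidneys in blue, tumors in red and black bars at the group medians. Apln and Esm1 are higher in all 10 tumors than in any normal kidney, while Pecam1, Emcn and Plvap spread on both sides of, or around, the controls, with 2, 0 and 2 tumors above and 5, 3 and 2 tumors below all normal kidneys.

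Apln, on the X chromosome (mm10 chrX:48025146-48034853, minus strand), encodes apelin, a secreted peptide that tip cells make and that hypoxia raises in many cells. Apln was at 2.45 CPM in the lowest, 7.85 CPM in the median and 17.8 CPM in the highest normal kidney, and at 52.5, 85.5 and 131 CPM in the lowest, median and highest tumor. The groups did not overlap, and the lowest tumor lay well above the highest normal kidney. In edgeR the log2 fold change was 3.49 ± 0.30 (SE, n = 10 and 10), an 11.3-fold higher level, with an edgeR adjusted p of 6.93e-09. On log2 CPM, a two-sided permutation test of the group means returned p = 2e-05. With no overlap between the groups this p is fixed near the smallest the test can give, so it adds no separate evidence. No share of the rise of Apln can be placed in vessels from tissue RNA.

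Esm1 (chr13:113209659-113218098, plus strand) encodes endocan, a proteoglycan that tip cells secrete in answer to VEGF. Its level was 6.45 CPM in the lowest, 10.4 CPM in the median and 22.2 CPM in the highest normal kidney, and 36.9, 53.9 and 139 CPM in the lowest, median and highest tumor. Here too all 10 tumors were above all 10 normal kidneys, with tumor 9 highest by a wide gap. Tumors differed by a log2 fold change of 2.51 ± 0.27 (adjusted p = 1.17e-07, edgeR), a 5.71-fold higher level. The Esm1 locus lies wholly inside that of Gzmk on the opposite strand, a gene of cytotoxic lymphocytes, whose mean level was 0.266 CPM.

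RefSeq sequences of the region before the start site (GRCm38.p6) were at hand for 5 of the 10 genes: Apln, Esm1, Eng, Emcn and Ehd3. The 250 bases upstream of the start of the 2 genes for which all tumors exceeded all normal kidneys and, for contrast, of Eng are shown here, 5′ to 3′ on the strand of the gene. Capitals mark matches, on either strand, to ACGTG or GCGTG, the core that HIF binds, and to AGGAAG, a core that ETS factors of endothelial cells bind. None of these motifs overlaps another here.
Apln (chrX:48034854-48035103, minus): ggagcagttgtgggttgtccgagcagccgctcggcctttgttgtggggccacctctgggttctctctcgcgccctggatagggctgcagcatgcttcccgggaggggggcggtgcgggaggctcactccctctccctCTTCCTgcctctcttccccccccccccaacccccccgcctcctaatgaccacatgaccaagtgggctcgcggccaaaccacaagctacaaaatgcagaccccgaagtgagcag
Esm1 (chr13:113209409-113209658, plus): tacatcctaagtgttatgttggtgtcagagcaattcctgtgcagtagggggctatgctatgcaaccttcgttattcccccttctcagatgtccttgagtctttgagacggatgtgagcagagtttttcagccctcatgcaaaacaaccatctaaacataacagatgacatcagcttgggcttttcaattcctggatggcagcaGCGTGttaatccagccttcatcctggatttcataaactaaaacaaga
Eng (chr2:32646345-32646594, plus): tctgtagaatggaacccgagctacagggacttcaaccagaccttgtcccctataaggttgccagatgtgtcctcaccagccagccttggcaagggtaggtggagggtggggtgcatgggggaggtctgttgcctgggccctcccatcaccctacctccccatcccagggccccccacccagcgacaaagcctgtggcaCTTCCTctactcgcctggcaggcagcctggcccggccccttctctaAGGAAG
Esm1 held 1 match to GCGTG, with its first base 47 bases upstream of the start, and no match to AGGAAG. Apln held 1 match to AGGAAG, on the opposite strand and with its far end 113 bases upstream, and Eng held 2, at 52 and 6 bases. Emcn, which was not called between the groups, held 1 match to GCGTG, at 11 bases, and 2 to AGGAAG, and Ehd3 held none of the motifs. For these 2 genes the RefSeq start lies inside the gene span given below. The Ehd3 window (chr17:73804591-73804840) is wholly within that span, and the Emcn window (chr3:137340828-137341077) ends within it. Of the 32851 promoters of the RefSeq table, 28.2% hold GCGTG, 16.6% hold ACGTG and 29.5% hold AGGAAG in the same 250 bases, so each of these matches is common. A match describes the letters only, and a window without one says nothing of the factor.

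Aplnr (chr2:85136225-85139923, plus strand) encodes the G protein coupled receptor that binds apelin. Its level was low, from 0.475 to 5.00 CPM in normal kidneys with a median of 1.56 CPM, and from 2.05 to 19.3 CPM in tumors with a median of 9.46 CPM. Of the tumors 8 were above all normal kidneys, and tumor 5, the lowest, lay within the range of the controls. Its log2 fold change was 2.39 ± 0.44 (edgeR adjusted p = 1.41e-04), a 5.23-fold higher level. Of 4 other genes of the apelin system 2 were called lower and the rest in neither direction. Over all genes tested 23.8% were called lower. Apela, the second ligand of the receptor, fell by 1.97 on the log2 scale (adjusted p = 0.0206) and fell by 2.88 without tumor 6, and Mme, whose product neprilysin cleaves apelin, fell by 4.72 (adjusted p = 9.98e-10). Mme is also a brush border enzyme of the proximal tubule.

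Cdh5 (chr8:104101625-104144511, plus strand) was the only one of the 4 genes of endothelium in general that was called. It ranged from 21.4 to 74.3 CPM in normal kidneys with a median of 51.6 CPM, and from 47.8 to 189 CPM in tumors with a median of 71.4 CPM. The groups overlapped: 5 tumors were above all normal kidneys, and these included tumors 7 and 9, which at 189 and 182 CPM lay far from the rest. Between the groups the log2 fold change was 0.83 ± 0.27 (edgeR adjusted p = 0.0139), a 1.78-fold higher level. Without tumors 7 and 9, a choice made after the values were seen, it was 0.38 with an adjusted p of 0.105, whereas with any 1 library left out it stayed called (adjusted p up to 0.0371). It was also not called with library totals in place of TMM factors (0.73, adjusted p = 0.0554). The fit without normal kidney 9 and tumor 7 lost the call too. A replicate block, which pairs libraries of the same number, lost the call as well (edgeR adjusted p = 0.108). Among 6 partners of VE-cadherin 1 was called higher and 3 lower, beside 23.6% higher and 23.8% lower over all genes tested. Ctnnd1, which encodes the p120 catenin that keeps VE-cadherin at the membrane, rose by 0.39 ± 0.09 (adjusted p = 0.00158), a call that was lost with library totals (adjusted p = 0.11). Ptprb, the phosphatase VE-PTP, fell by 0.97 (adjusted p = 0.0103), and Cdh2, N-cadherin, which tubule cells also make, fell by 4.04 (adjusted p = 2.55e-05) and fell by 5.08 without tumor 7.

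Pecam1 (chr11:106654217-106750628, minus strand) encodes CD31, the usual stain for vessel density. It was at 78.0 CPM in the lowest, 95.5 CPM in the median and 134 CPM in the highest normal kidney, and at 58.7, 78.7 and 221 CPM in tumors. The tumors spread on both sides of the controls, with 2 above all normal kidneys, tumors 7 and 9, and 5 below all of them. The fitted log2 fold change was 0.07 ± 0.21 (edgeR adjusted p = 0.811), with a 95% interval from -0.35 to 0.49. Without tumors 7 and 9 the sign turned, to -0.34 with an adjusted p of 0.0235.

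Emcn (chr3:137341067-137432185, plus strand), the sialomucin endomucin of capillaries and veins, was nearly level. Its median was 67.1 CPM in normal kidneys (61.1 to 125 CPM) and 65.3 CPM in tumors (46.3 to 119 CPM). Normal kidney 9 was the highest of the 20 libraries for Emcn, while it was the lowest normal kidney for 6 of the 10 genes. The fitted log2 fold change was -0.0025 ± 0.16 (edgeR adjusted p = 0.992), with a 95% interval from -0.33 to 0.32.

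Plvap (chr8:71497765-71511752, minus strand) encodes the protein of the diaphragms that span endothelial fenestrae, and it was the most abundant of the 10 in both groups. It ran from 183 to 267 CPM in normal kidneys (median 216 CPM) and from 173 to 426 CPM in tumors (median 211 CPM). Only tumors 9 and 1 lay above all normal kidneys. Its log2 fold change was 0.09 ± 0.16 (edgeR adjusted p = 0.652), with a 95% interval from -0.21 to 0.40. Plvap overlaps Gtpbp3 on the opposite strand, which had a mean of 16.02 CPM, and the use of strand in counting is not given in the sources used here.

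Ehd3 (chr17:73804134-73832094, plus strand) encodes an ATPase of endocytic recycling that in the kidney marks glomerular endothelium. In normal kidneys it was at 22.7 CPM in the lowest, 47.9 CPM in the median and 52.6 CPM in the highest library, and in tumors at 7.70, 18.2 and 28.6 CPM. Of the tumors 8 were below all normal kidneys. The exceptions, tumors 7 and 9, overlapped the 3 lowest normal kidneys, numbers 5, 8 and 9, which were at 22.7 to 26.5 CPM while the other 7 were at 44.8 CPM or more. Between the groups the log2 fold change was -1.26 ± 0.24 (edgeR adjusted p = 1.96e-04), a level 2.39-fold higher in normal kidneys. Of its paralogs, Ehd1 rose by 0.65 ± 0.11 (adjusted p = 3.01e-05), with every tumor above every normal kidney, while Ehd2 differed by -0.17 (adjusted p = 0.726) and Ehd4 by -0.55 (adjusted p = 0.0607). Both depended on tumor 7: without it Ehd2 was at -0.67 (adjusted p = 0.0322) and Ehd4 at -0.83 (adjusted p = 3.27e-04), each called lower. Ehd4 was called lower in 7 of 10 other settings as well, DESeq2 among them (adjusted p = 0.0452).

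Other genes of glomerular capillaries went with Ehd3 in part. Of 8 listed genes 6 were tested, of which 3 were called lower and 1 higher, beside 23.8% lower and 23.6% higher over all genes tested. Lpl, the lipase held on capillary walls, fell by 2.97 (adjusted p = 1.16e-07, edgeR), Tbx3, a transcription factor, by 2.08 (adjusted p = 3.89e-04), and Smad6, an inhibitor of BMP signaling, by 1.53 (adjusted p = 3.08e-06). Which cells made the Lpl RNA was not tested, so its fall need not be one of endothelium. Mapt, which encodes tau, was the gene called higher, by 0.77 (adjusted p = 0.0439), and this call was lost in 4 of 10 other settings, library totals among them (adjusted p = 0.128), and in 11 of 20 fits that each left out 1 library. Podocytes, the epithelial cells that wrap the same capillaries, had 6 of 8 markers lower and the rest in neither direction, with a median log2 fold change of -3.10. The summed podocyte markers came to 154 to 341 CPM in tumors and 152 to 1112 CPM in normal kidneys, so they were low in the same libraries as Ehd3, tumors and normal kidney 9, but not in normal kidneys 5 and 8, which had 711 and 720 CPM. The part that a smaller share of glomeruli has in the level of Ehd3 was not tested.

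Eng (chr2:32646595-32682669, plus strand) encodes endoglin, a co-receptor for BMP9, BMP10 and TGF-beta that rises in proliferating vessels. Its level was tight in normal kidneys, from 117 to 162 CPM with a median of 143 CPM, and wide in tumors, from 45.0 to 184 CPM with a median of 81.6 CPM. Of the tumors 7 were below all normal kidneys and 1, tumor 7, was above all of them. Its log2 fold change was -0.53 ± 0.20 (edgeR adjusted p = 0.0353), and a two-sided permutation test on log2 CPM returned p = 0.00508. The call was lost without a filter on low counts (adjusted p = 0.0631) and in 8 of 20 fits that each left out 1 library (adjusted p up to 0.0649), while without tumors 7 and 9 the fall was 0.83 (adjusted p = 2.56e-05). Eng overlaps the last bases of Fpgs on the opposite strand, which had a mean of 38.1 CPM. Of 16 receptors, ligands and targets of endoglin signaling 14 were tested, with 1 called higher and 5 lower. Over all genes tested 23.6% were called higher and 23.8% lower. The targets Id1 and Id3 fell by 2.61 and 1.34 (adjusted p = 7.86e-06 and 4.91e-04), and the inhibitory Smad6 and Smad7 fell by 1.53 and 0.75 (adjusted p = 3.08e-06 and 4.95e-04). The receptor Acvrl1, ALK1, fell by 0.69 with an adjusted p of 0.0425, a call that was lost without the filter (adjusted p = 0.0690) and in 14 of 20 fits that each left out 1 library. The receptors Bmpr2 (-0.07, adjusted p = 0.745) and Tgfbr2 (0.30, adjusted p = 0.219) passed in neither direction. The ligand Tgfb1 was higher by 1.54 ± 0.16 (adjusted p = 6.59e-08), with every tumor above every normal kidney. Many cell types make these ligands and targets.

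Vwf (chr6:125546774-125686679, plus strand) encodes von Willebrand factor, which endothelium of larger vessels stores and which binds platelets. It varied more among tumors than any other of the 10 genes. Normal kidneys ran from 4.78 to 22.0 CPM with a median of 12.1 CPM. Tumors ran from 1.94 to 56.3 CPM with a median of 8.93 CPM. The coefficient of variation was 112% in tumors and 36.4% in normal kidneys. Tumors 7, 9 and 6 lay above all normal kidneys at 56.3, 54.5 and 26.0 CPM, and 3 tumors lay below all of them. The fitted log2 fold change was 0.60 ± 0.52 (edgeR adjusted p = 0.361), and it turned to -0.41 without tumors 7 and 9 (adjusted p = 0.429). Of 8 partners of von Willebrand factor 5 were tested, with 1 higher and 1 lower, beside 23.6% and 23.8% of all genes tested. F8, factor VIII, which the factor carries in blood, fell by 1.70 (adjusted p = 2.5e-04), and Angpt2, stored with it in endothelial granules, rose by 1.80 (adjusted p = 2.1e-04). In tumor 7 platelet markers summed to 440 CPM, against 4.82 to 23.4 CPM in the other tumors. Tumor 9, with nearly the same Vwf, had 23.4 CPM. The part of platelets in the level of Vwf was not tested.

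**Figure D2:**
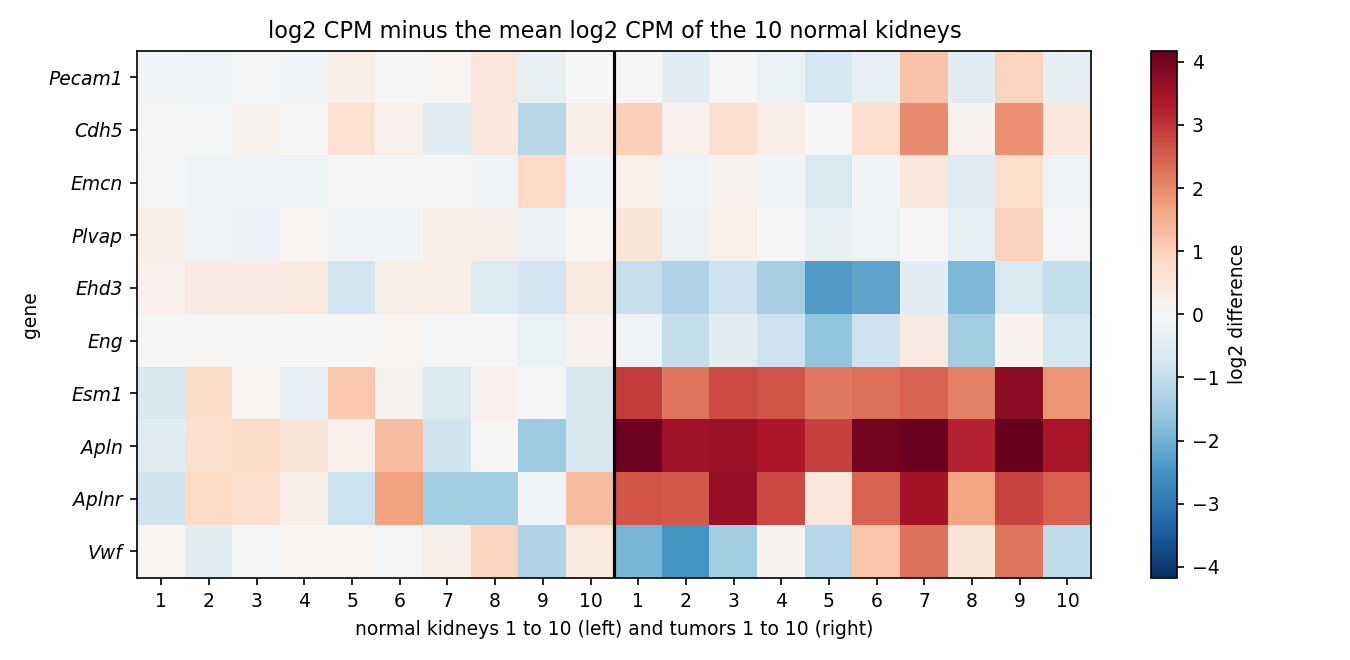
Heat map of the 10 genes (rows) in normal kidneys 1 to 10 (left) and tumors 1 to 10 (right), coloured by log2 CPM minus the mean log2 CPM of the normal kidneys. The Esm1, Apln and Aplnr rows are red in nearly all tumors, Ehd3 is blue in all 10, and tumors 7 and 9 are the reddest columns.

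The tumors differed from one another in step. Tumor 9 was among the 2 highest tumors for 9 of the 10 genes and tumor 7 for 8, whereas tumor 5 was the lowest for 7. The sum over the 10 genes was 1432 CPM in tumor 9, 1195 CPM in tumor 7 and 489 CPM in tumor 5, with 541 to 951 CPM in the other tumors. In normal kidneys the sum was narrower, from 566 to 737 CPM, and its median of 668 CPM was close to the tumors' median of 685 CPM. Tumor 7 also had the most fibroblast, macrophage and leukocyte RNA. Its fibroblast markers summed to 6409 CPM against 87.1 to 391 CPM in the other tumors, its macrophage markers to 1460 CPM against 252 to 703 CPM, and its leukocyte markers to 260 CPM against 34.7 to 102 CPM. Tumor 9 was second in each of these. Markers of pericytes and smooth muscle, the cells that wrap vessels, summed to 1232 and 1095 CPM in tumors 7 and 9 and to 353 to 830 CPM in the other tumors. The part of these cell types in the levels of tumors 7 and 9 was not tested.

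Over the 10 tumors, log2 CPM of the other 9 genes followed that of Cdh5 with Pearson's r between 0.597 (Aplnr) and 0.976 (Pecam1). For Vwf r was 0.672 (Spearman's rho 0.467), and it became -0.0426 once tumors 7 and 9, the farthest from the median of Cdh5, were left out, so that relation rests on them. For Pecam1, Emcn, Eng and Apln r stayed at 0.881, 0.889, 0.905 and 0.898 without them. Ehd3 went from 0.714 to 0.497, while Plvap, Esm1 and Aplnr were then at 0.821, 0.598 and 0.639. In normal kidneys r lay between -0.792 (Emcn) and 0.756 (Vwf). The value for Emcn became 0.366 without normal kidneys 7 and 9, and rho over all 10 was -0.273, so the negative r rests on those libraries. Other values depended on them as well. Without them r lay between -0.838 (Ehd3) and 0.863 (Pecam1), and Eng went from 0.751 to -0.0773 and Apln from 0.621 to -0.161. Libraries share their depth and scaling factor across genes, and these values are a description.

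**Figure D3:**
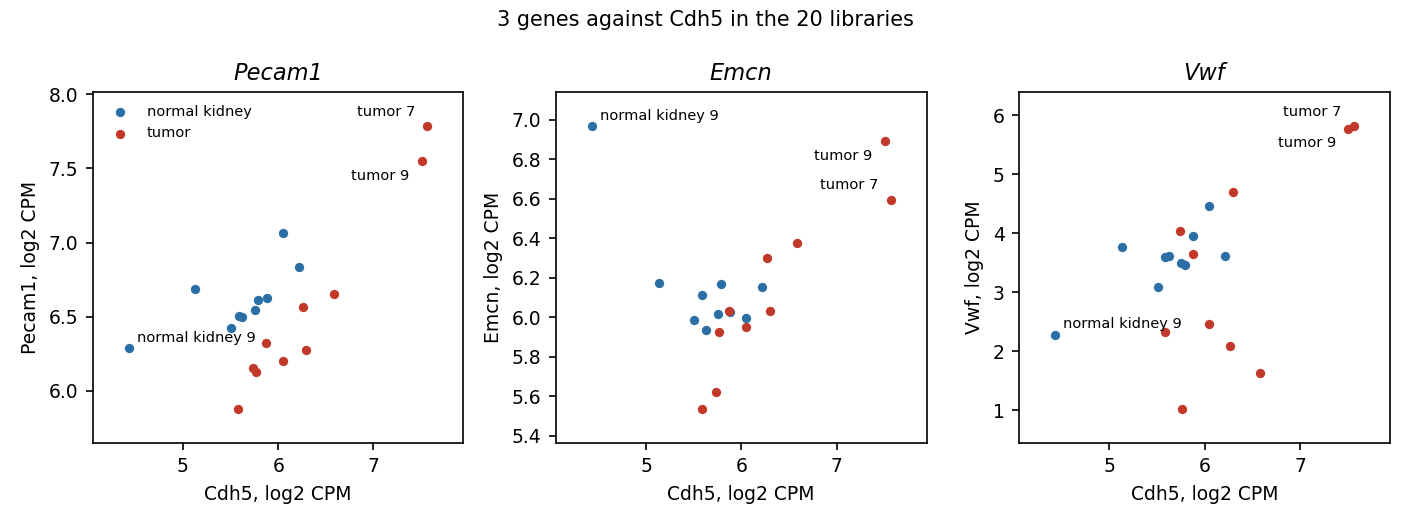
Pecam1, Emcn and Vwf against Cdh5, all in log2 CPM, in 10 normal kidneys (blue) and 10 tumors (red), with tumors 7 and 9 and normal kidney 9 labelled. Pecam1 rises with Cdh5 among tumors (r = 0.976), Emcn is highest in normal kidney 9, where Cdh5 is lowest, and the high Vwf values belong mostly to tumors 7 and 9.

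Genes were next compared with Cdh5 of the same library, which asks whether a gene changed more or less than VE-cadherin did. The log2 CPM of Cdh5 was subtracted from that of every other gene, and the differences were tested by limma over 15353 genes. Of the other 9 genes 3 were higher relative to Cdh5 and 5 were lower. Over all genes 5.54% were higher and 45.6% lower. By construction the difference of Cdh5 itself enters each of these values, and a lower call here is common. Apln was higher by 2.91 ± 0.28 (limma adjusted p = 6.5e-10), Esm1 by 1.79 ± 0.29 (adjusted p = 8.64e-06) and Aplnr by 1.77 ± 0.42 (adjusted p = 0.00103). Ehd3 was lower, at -2.03 ± 0.29 (adjusted p = 1.51e-06), and so was Eng, at -1.39 ± 0.24 (adjusted p = 2.7e-05). The ratio of Eng to Cdh5 went from a log2 of 1.55 ± 0.43 (SD, n = 10) in normal kidneys to 0.16 ± 0.26 in tumors. Pecam1 (-0.78, adjusted p = 0.00716), Emcn (-0.75, adjusted p = 0.0325) and Plvap (-0.68, adjusted p = 0.0458) were called lower as well. Vwf, at -0.91 ± 0.40, was not called (adjusted p = 0.0584), though it was without tumors 7 and 9 (-1.21, adjusted p = 0.0166). The call of Plvap was lost in 13 of 20 fits that each left out 1 library (adjusted p up to 0.0815). The calls of Emcn and Plvap were lost without tumors 7 and 9 (adjusted p = 0.0709 and 0.0723) and turned sign with Pecam1 as the reference, where Ehd3 (-1.24, adjusted p = 2.66e-04) and Eng (-0.61, adjusted p = 0.0115) stayed lower. With a replicate block, which pairs libraries of the same number, 2 of the 9 genes were lower in place of 5. Pecam1 was then not called (limma adjusted p = 0.0744).

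**Figure D4:**
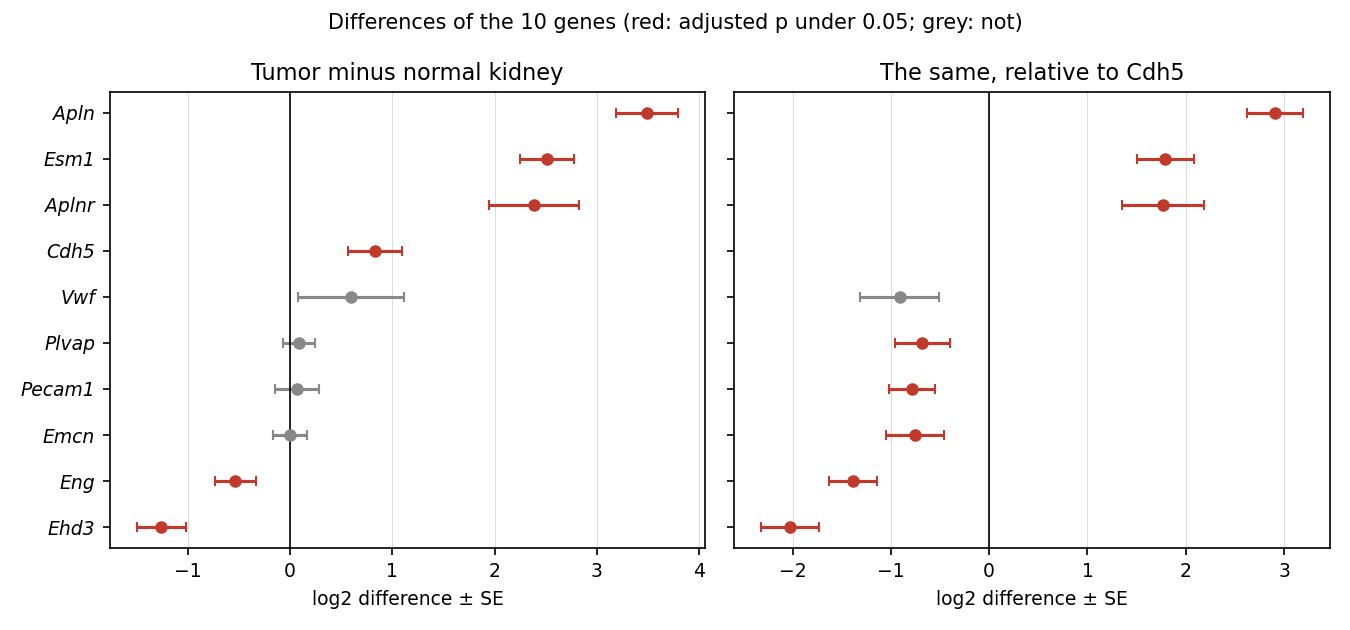
Left, log2 fold change ± SE of the 10 genes from edgeR, and right, the log2 difference ± SE relative to Cdh5 from limma for the other 9, with values past an adjusted p of 0.05 in red. Apln, Esm1 and Aplnr lie to the right and Ehd3 and Eng to the left of 0 in both panels.

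Levels of different genes can be set side by side only per length, as CPM per kilobase of exon. On this scale the order in normal kidneys was Plvap (111 ± 16.9, SD), Eng (35.0 ± 2.81), Pecam1 (15.8 ± 2.55), Emcn (13.4 ± 3.49), Cdh5 (12.1 ± 3.58), Ehd3 (6.39 ± 1.92), Esm1 (5.28 ± 2.43), Apln (2.65 ± 1.49), Vwf (0.763 ± 0.278) and Aplnr (0.528 ± 0.412). Some neighbours did not differ beyond their spread: Emcn was above Cdh5 in 5 of 10 normal kidneys, Ehd3 above Esm1 in 6 and Vwf above Aplnr in 6. In tumors Esm1 (30.2 ± 14.0) and Apln (29.8 ± 8.75) came next after Plvap (118 ± 39.8), and Esm1 was above Apln in only 4 of 10 tumors. Eng (24.2 ± 11.2) and Cdh5 (21.5 ± 12.5) followed, and Ehd3 (2.67 ± 1.07), the sixth in normal kidneys, stood beside Aplnr (2.75 ± 1.39), which was above it in 5 of 10 tumors. Apln was above Eng in 9 of 10 tumors, whereas in normal kidneys Eng was the second gene and Apln the eighth.

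Genes whose pattern was most like that of 3 of the 10 were sought among 14748 genes by the lower of their Pearson correlations over the 10 tumors and over the 10 normal kidneys. Nearest to Cdh5 were Slc23a2 (0.934), Notch4 (0.924), Arhgap31 (0.924), Kcnk3 (0.917) and Celf2 (0.909). Of these Notch4 encodes a Notch receptor of endothelium. Its own log2 fold change was 0.32 (edgeR adjusted p = 0.283), while Slc23a2, a vitamin C transporter, differed by -1.19 (adjusted p = 0.00112), so likeness within groups did not mean the same difference between groups. Nearest to Ehd3 were Hecw2 (0.870), Slc2a13 (0.866), Tek (0.860), Gucy1a2 (0.834) and Cd300lg (0.828). Tek, the angiopoietin receptor TIE2, fell by 1.70 (adjusted p = 3.18e-06). For Esm1 the nearest genes were weaker matches: Bhlha15 (0.759), Srsf2 (0.722), Nr4a2 (0.704), Nfx1 (0.701) and Ampd2 (0.698).

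Further genes of endothelium in general, 30 in number, leaned the other way from Cdh5. Of these 14 were called lower and 0 higher by edgeR, with 0 higher also at an unadjusted p under 0.05 and 0 higher by DESeq2. Their median log2 fold change was -0.58. Over all genes tested 23.8% were called lower and 23.6% higher. This list too was chosen with earlier results of these data known. Their summed level was 701 to 1206 CPM in normal kidneys (median 1057 CPM) and 468 to 1306 CPM in tumors (median 555 CPM), with tumors 7 and 9 at 1156 and 1306 CPM and the other tumors at 468 to 700.2 CPM. Tek was below every normal kidney in every tumor. Calcrl, the receptor that with RAMP2 binds adrenomedullin, fell by 1.13 (adjusted p = 4.13e-04), and Adgrf5, an adhesion receptor of capillaries, fell by 0.81 (adjusted p = 0.00978). Among the VEGF receptors, named here after their values were seen, Kdr differed by -0.62 (adjusted p = 0.067) and Flt1 by -0.60 (adjusted p = 0.0414). Kdr was called lower in 6 of 10 other settings, DESeq2 among them (adjusted p = 0.0437). The call of Flt1 was lost without the filter on low counts (adjusted p = 0.0656) and with a replicate block (edgeR adjusted p = 0.0670). It was also lost in 16 of 20 fits that each left out 1 library. Without tumors 7 and 9, 25 of the 30 were called lower.

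Other genes of tip cells and sprouting vessels moved with Esm1 and Apln. Of 14 listed 12 were called higher and 0 lower by edgeR, with 0 lower also at an unadjusted p under 0.05 and 0 lower by DESeq2. Their median log2 fold change was 1.46. Over all genes tested 23.6% were called higher and 23.8% lower. The list was chosen with earlier results of these data known, so its count is no independent support for the rises of Esm1 and Apln. Adm, adrenomedullin, a peptide that hypoxia raises, went from 7.55 to 19.1 CPM in normal kidneys to 114 to 204 CPM in tumors, a log2 fold change of 3.85 ± 0.18 (adjusted p = 6.96e-13). Pgf, placental growth factor, rose by 2.30 (adjusted p = 1.61e-04), Col4a1, a collagen of the basement membrane, by 2.20 (adjusted p = 1.68e-06), and Angpt2, which loosens vessels, by 1.80. Dll4, the Notch ligand of tip cells, rose by 1.08 ± 0.20 (adjusted p = 1.84e-04) with every tumor above every normal kidney. Adm, Pgf and Col4a1 are made by epithelial and stromal cells too, and no share of their rise can be placed in vessels from tissue RNA.

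The other vessel types gave mixed counts, to be read beside the 23.6% of all genes called higher and the 23.8% called lower. Genes of peritubular capillaries had 4 of 7 higher and 1 lower, with Igfbp5 up by 2.83 (edgeR adjusted p = 2.44e-06) and Gpihbp1, which anchors lipoprotein lipase on capillaries, up by 2.74 (adjusted p = 2.18e-06), and with Rgcc, a cell cycle regulator, down at -2.12 (adjusted p = 6.95e-04). Igfbp5 is also made by epithelial and stromal cells. Arterial genes had 2 of 11 higher and 6 lower. Of the 2 higher, Dll4 was already counted above among the tip cell genes. Fbln5, an elastic fibre protein, was at -1.97 (adjusted p = 1.73e-04). Gja1, connexin 43, was at 1.31 (adjusted p = 0.00952), and without tumors 7 and 9 at 0.53 (adjusted p = 0.081). Venous genes had 3 of 5 tested lower and the rest in neither direction, with Ephb4 at -1.23 (adjusted p = 4.52e-08) and below every normal kidney in every tumor. Lymphatic genes had 3 of 5 tested lower and 1 higher. Flt4, the one with the highest level per length in normal kidneys, differed by 0.31 (adjusted p = 0.286) and was not called. Prox1, the regulator of lymphatic identity, fell by 5.21 (adjusted p = 2.42e-09) and Reln, reelin, by 3.53 (adjusted p = 2.39e-05). Which cells made the Prox1 and Reln RNA was not tested, nor was a loss of lymphatic vessels. Lyve1, which macrophages also make, rose by 3.23 (adjusted p = 8.57e-04). The rise of Lyve1 was 2.13 without tumor 7, which had the highest level at 130 CPM beside a tumor median of 8.60 CPM.

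**Figure D5:**
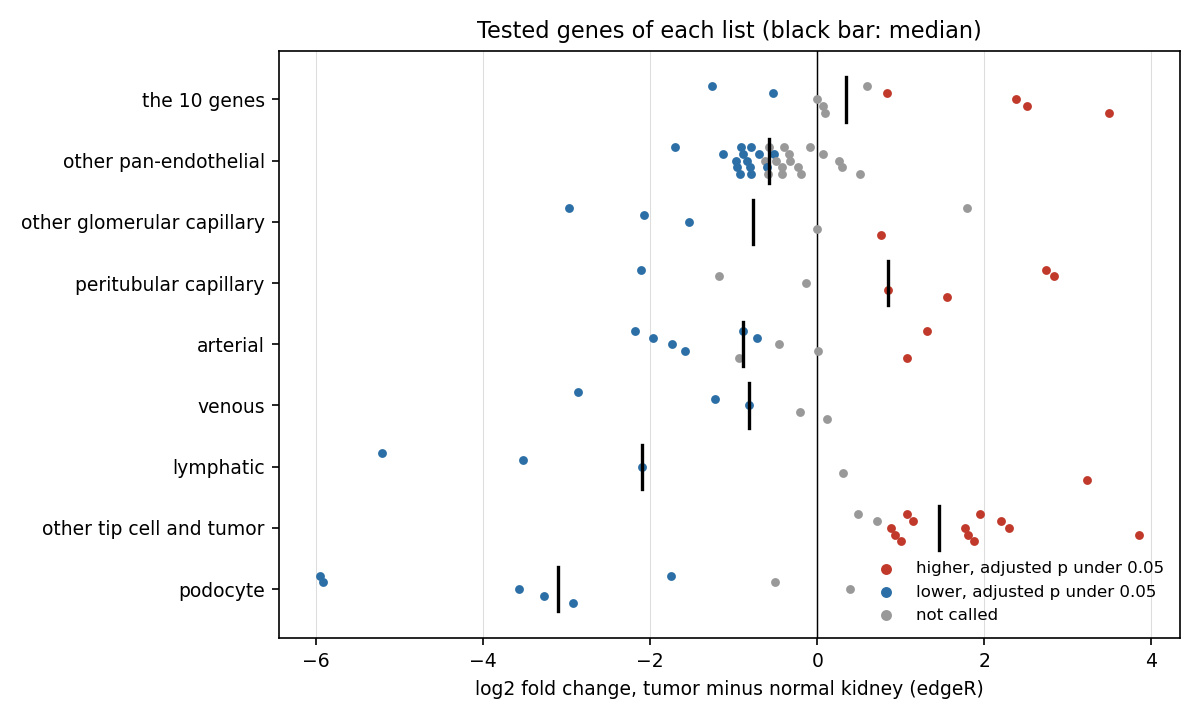
Log2 fold change, tumor minus normal kidney, of each tested gene of the 10 and of the further lists, with genes called higher in red, lower in blue and not called in grey, and a black bar at the median of each list. The other pan-endothelial genes centre on -0.58, the other tip cell genes on 1.46 and the podocyte genes on -3.10.

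Markers of the remaining cell types were counted in the same way, to be read beside the same 23.6% of all genes called higher and 23.8% called lower. Macrophages had 5 of 7 higher, pericytes and smooth muscle 3 of 10 higher, platelets 2 of 3 tested higher, leukocytes in general 1 of 4 higher, fibroblasts 1 of 5 lower and proximal tubule 1 of 6 lower, and the other markers of each were called in neither direction. Tumor 7 carried several of these counts. Without it 0 platelet and 0 leukocyte markers were higher, 1 platelet marker, 2 fibroblast markers and 5 markers of pericytes and smooth muscle were lower, and 4 macrophage markers were higher, or 2 without tumors 7 and 9. Proximal tubule markers summed to 840 to 8521 CPM in tumors and 1102 to 8580 CPM in normal kidneys. Normal kidneys 5, 7 and 8 were lowest among the controls at 1795, 1102 and 2288 CPM, and normal kidneys 5 and 8 were also low in Ehd3. In normal kidney 9 macrophage markers summed to 385 CPM, the highest of the controls, which otherwise lay at 110 to 196 CPM. The part of these differences in the levels of the 10 genes was not tested.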

How the data were processed

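RNA of 10 tumors and 10 normal kidneys was extracted with Trizol from frozen, pulverized tissue, and a sequencing company made polyA libraries and read pairs. The authors deposited whole-number counts per gene without normalization, on the build mm10. The aligner, the counter, the annotation release and the use of strand are not given in the sources used here, so overlapping and antisense genes carry uncertain counts. No column of per-sample values was left unused (0), and 0 rows named no gene.

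Counts were scaled with TMM factors and filtered with a count minimum of 10 in edgeR 4.0.16 (R 4.3.3), and groups were compared by its quasi-likelihood test, with p adjusted by the Benjamini-Hochberg method across the 15354 genes. The SE is the log2 fold change divided by the root of F. Differences relative to Cdh5 were tested with limma 3.58.1 on log2 CPM with a prior count of 2. Permutation tests drew 100000 resamples (seed 20240). Alternatives were DESeq2 1.42.0, limma-voom with and without quality weights, other scalings and filters, a replicate block, and leaving out libraries. The tests were checked on simulated data. The closest of the 90 pairs of libraries within a group differed by a chi-square of 12.8 per degree of freedom, so none was a copy of another. Gene lengths for CPM per kilobase are the exon lengths that the authors deposited in the count table. Counting error and the spread between libraries set the precision, and reads carry no molecular identifiers, so they are not counts of independent molecules.

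The 10 genes and all lists were chosen with earlier results of these data known. Some genes stand in more than 1 list, Dll4, Smad6, Ptprb and Angpt2 among them, so the counts of the lists are not separate from one another. Named beside the 10 are the 2 called genes of each endothelial list with the largest change in each direction and a mean level of 1 CPM or more in either group, partners of the 10, the 2 most abundant markers per length of other cell types, and the 5 nearest genes for Cdh5, Ehd3 and Esm1. Some genes that this rule covers are not reported here.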

Additional observations from a re-analysis of the deposited data

Results flagged for a closer look

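Among 22 groups of 10 values each (the CPM of the 10 genes, and the TMM factors, in tumors and in normal kidneys), 2 held a library set far from the others by Dixon's criterion at the 95% level, which divides the gap to the next library by the range. Chance sets off about 1 in 20 such groups. Emcn was at 125 CPM in normal kidney 9 and at 72.2 CPM in the next highest normal kidney, with a gap of 0.767 of the range. The TMM factor of the same library was 0.749 and the next lowest was 1.03, with a gap of 0.75 of the range. CPM is scaled with this factor, and a low factor raises it, so the 2 flags are not independent. Leaving out normal kidney 9 moved the log2 fold change of Emcn to 0.11 (edgeR adjusted p = 0.534), still not called.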

How the results depend on the processing

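The rises of Apln, Esm1 and Aplnr and the fall of Ehd3 kept their direction and their call under every alternative run, with log2 fold changes of 3.29 to 3.68, 2.29 to 2.68, 2.14 to 2.66 and -1.56 to -1.17. Of the 10 genes 2 were lower, but 1 without a filter on low counts and 1 by the limits of the study, and 1 to 2 when 1 library was left out, with Eng losing its call without normal kidney 4 or 10 or without tumor 2, 4, 5, 6, 8 or 10. Relative to Cdh5, 5 were lower, but 2 with Pecam1 as the reference, 2 with a replicate block, and 3 to 6 with 1 library left out (3 without normal kidney 7 or 9). Of the other glomerular genes 5 in place of 3 were lower without a filter. Of the 30 pan-endothelial genes 14 were lower, but 24 by limma-voom with quality weights, 25 without tumors 7 and 9 and 11 to 20 with 1 library left out.

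Genes near 0 turned sign, none with a call except Pecam1 without tumors 7 and 9 (-0.34). Pecam1 gave -0.014 with library totals, -0.030 with upper quartile factors, -0.062 by limma-voom, -0.15 with quality weights, -0.064 with the block, -0.18 without normal kidney 9 and tumor 7, and -0.13 to 0.14 with 1 library left out. Emcn gave 0.019 without a filter, 0.056 with quality weights, 0.041 without normal kidney 9 and tumor 7, and -0.11 to 0.11 with 1 left out. Plvap gave -0.020 with library totals, -0.022 with upper quartile factors, -0.054 without tumors 7 and 9, and -0.047 to 0.13 with 1 left out. Vwf gave -0.13 by limma-voom, -0.72 with quality weights, -0.28 with the block and -0.41 without tumors 7 and 9. Relative to Pecam1, Emcn gave 0.029 and Plvap 0.10.

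Library totals and upper quartile factors moved the median over all genes by -0.12 and -0.12 on the log2 scale, from -0.02 with TMM factors, which is the size of the shifts of Pecam1 and Plvap under them. Same-numbered libraries deviated together in 9 of 10 pairs (correlations -0.143 to 0.377), and 8 of 10 tumors matched their own number best, a hint from the data and not from the labels. With the replicate block, 3979 genes were higher and 3886 lower, and Cdh5 was not called (0.68, adjusted p = 0.108), nor were Pecam1, Emcn and Plvap relative to Cdh5 (adjusted p = 0.0744, 0.115 and 0.168). The cause of these changes was not tested. Low counts limit Aplnr most, with 10 to 408 counts per library.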
